A study of Mus musculus with 9 samples.

Results

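Cardiac sarcomere and Z-disc genes, 37 in number, were followed in the right ventricle of mice given monocrotaline (MCT). The list names proteins of the contractile unit of heart muscle and was compared gene by gene across 9 mice. A gene was measured where the array held a probe set (the group of probes summarised to 1 value) annotated to that gene alone, and the brightest was taken where there were several. This left 35 of the 37 members among 18820 genes. Cryab, a small heat shock protein that binds desmin and titin, was on probe sets shared with its neighbour Hspb2. Nrap, an anchoring protein of the intercalated disc, shared its probe set with Habp2. Neither has a value here. Of the 35, 11 belong to the thin filament, 8 to the thick filament, titin and M-band, 12 to the Z-disc and 4 to the intercalated disc and the assembly of myofibrils.

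Female C57BL/6 mice arrived at 8 weeks of age, were put on their diet, and were injected under the skin once a week for 8 weeks from 10 weeks of age. Sham mice (n = 3, numbers 620, 624 and 625) received saline and the semi-synthetic standard diet AIN-93M. MCT mice (n = 3, 640, 641 and 644) received 600 mg/kg MCT, a plant alkaloid used to provoke pulmonary hypertension, with the same diet. MCT+NI mice (n = 3, 615, 617 and 619) received the same MCT doses with the nutritional intervention (NI), a diet of equal energy rich in protein, leucine, oligosaccharides and fish oil. The study describes no group with NI and no MCT, so an effect of NI without MCT cannot be read from these mice. The arrayed mice were a part of the animals of the experiment, picked to match in disease severity, so they do not stand for the whole range of responses. RNA came from whole right ventricle and each array holds 1 mouse.

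The sarcomere is the repeating unit of the myofibril. Thin filaments of actin, tropomyosin and troponin slide past thick filaments of myosin, titin spans from the Z-disc to the M-band, and the Z-disc anchors thin filaments through alpha-actinin and a set of PDZ and LIM domain proteins that also bind signalling enzymes. In a heart that works against raised pressure, muscle cells add sarcomeres, and Z-disc proteins are studied as sensors of that load.

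Between MCT and sham mice 26 of the 35 members differed by less than 0.2 log2 units. Those that passed the test were 3 of the 12 at the Z-disc, where 6.26% of all genes passed. In MCT against sham mice, Fhl2 and Pdlim5, both LIM domain proteins of the Z-disc, rose by 0.20 and 0.19 on the log2 scale, and Cmya5, which encodes myospryn, fell by 0.27. In that order, their calls held under 9, 10 and 5 of 18 other settings. With MCT+NI, again relative to sham, Fhl2, Pdlim5 and the troponin subunit gene Tnnc1 rose and Myom2, an M-band gene, fell by 0.42. Between MCT+NI and MCT mice no member passed the test. Related genes of the general cytoskeleton, Actn1, Tpm3 and Tpm4, rose more than these members in MCT against sham mice (by 0.76 to 1.14).

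The values are log2 intensities, so a difference of 1 is a doubling, and adjusted p-values are those of limma's moderated test over all 18820 genes. In MCT against sham mice 3 of the 35 members had an adjusted p under 0.05, where 6.26% of all genes did. They were 2 higher, against 4.65% of all genes, and 1 lower, against 1.61%. Between MCT+NI and MCT mice 0 of 35 passed, and the same test called 0% of all genes. Between MCT+NI and sham mice 4 of 35 passed, against 6.26% of all genes. Of these, 3 were higher, against 4.52% of all genes, and 1 was lower, against 1.75%. These counts of 3, 0 and 4 genes are too small to set the list apart from the rest of the array. The same 3 MCT arrays enter both comparisons with MCT mice and the same 3 sham arrays enter both comparisons with sham, so values of a gene in 2 comparisons are given side by side and are not independent.

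The promoters of the members were read for 6 short motifs, since several of the members are textbook targets of the muscle transcription factors SRF and MEF2. RefSeq promoters (build GRCm38.p6) matched 32 of the 37 members, with 42 start sites, and the 250 bases before each start were searched on both strands. A CArG box, the binding motif of SRF, lay there in 6 of the 32 members (18.8%) and in 1.62% of all genes with a promoter. A MEF2 site lay in 18.8% of members and 3.42% of genes. CATTCC, the core of the M-CAT element, lay in 28.1% and 14.4%, CAGCTG (an E-box) in 21.9% and 14.7%, TATAAA in 15.6% and 14.3%, and GATAAG in 9.38% and 7.6%. The MEF2 motif can overlap TATAAA, and both were counted where it did. These are letter matches, not shown binding sites.

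The 200 bases before the start are shown for Fhl2, Pdlim5, Cmya5 and Tnnc1, which passed the test, and for Actc1, a member that stayed level in all mice, in gene orientation with motif matches in capitals. Before the first Fhl2 start (chr1:43196762-43196961, minus strand) the capitals mark a CArG box and, on the other strand, a GATAAG match. They also mark a MEF2 site that overlaps TATAAA on the other strand. Before the second Fhl2 start (chr1:43163962-43164161, minus strand) they mark a CArG box. The Actc1 promoter (chr2:114052876-114053075, minus strand) holds a CArG box, and the Tnnc1 promoter (chr14:31208112-31208311, plus strand) holds CATTCC on the other strand. The Pdlim5 promoter at its first start (chr3:142395697-142395896, minus strand) and the Cmya5 promoter (chr13:93144725-93144924, minus strand) held none of the 6 motifs in the stretch shown. Before the second Pdlim5 start (chr3:142391851-142392050, minus strand) the capitals mark TATAAA on the other strand.
Fhl2, first start: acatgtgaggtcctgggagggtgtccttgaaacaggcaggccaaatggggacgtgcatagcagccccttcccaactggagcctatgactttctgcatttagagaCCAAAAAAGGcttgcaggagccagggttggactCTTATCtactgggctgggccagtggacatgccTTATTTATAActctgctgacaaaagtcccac
Fhl2, second start: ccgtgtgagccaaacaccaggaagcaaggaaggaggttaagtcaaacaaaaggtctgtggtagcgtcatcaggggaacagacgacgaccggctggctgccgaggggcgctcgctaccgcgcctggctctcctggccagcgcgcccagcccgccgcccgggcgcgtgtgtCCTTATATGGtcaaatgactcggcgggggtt
Pdlim5, first start: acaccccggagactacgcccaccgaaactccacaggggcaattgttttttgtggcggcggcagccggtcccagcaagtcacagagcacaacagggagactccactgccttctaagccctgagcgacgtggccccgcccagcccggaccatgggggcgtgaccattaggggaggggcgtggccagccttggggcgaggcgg
Pdlim5, second start: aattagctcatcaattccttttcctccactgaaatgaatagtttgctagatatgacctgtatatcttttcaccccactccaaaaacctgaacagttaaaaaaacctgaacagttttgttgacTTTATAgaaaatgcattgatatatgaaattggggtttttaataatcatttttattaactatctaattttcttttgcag
Cmya5: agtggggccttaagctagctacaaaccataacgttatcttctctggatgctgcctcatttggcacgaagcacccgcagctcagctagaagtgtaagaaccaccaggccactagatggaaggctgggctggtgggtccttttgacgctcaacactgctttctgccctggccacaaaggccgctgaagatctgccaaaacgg
Tnnc1: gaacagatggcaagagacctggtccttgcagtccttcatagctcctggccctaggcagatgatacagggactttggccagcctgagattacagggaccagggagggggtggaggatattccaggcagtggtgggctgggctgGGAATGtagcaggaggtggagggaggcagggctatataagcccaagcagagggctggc
Actc1: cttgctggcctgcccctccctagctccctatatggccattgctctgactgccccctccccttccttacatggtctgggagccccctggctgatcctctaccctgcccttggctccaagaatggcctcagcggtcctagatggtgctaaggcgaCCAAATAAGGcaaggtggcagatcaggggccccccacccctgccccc

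For the other 4 members with a CArG box, 40 bases around it are shown, with the box in capitals. They are Nebl (chr2:17462994-17463033, minus strand), Myl3 (chr9:110763578-110763617, plus strand), Ldb3 (chr14:34588692-34588731, minus strand) and Myom1 (chr17:71019443-71019482, plus strand). Of the 6 members with the box, Fhl2 passed the test and the others did not. In MCT against sham mice 3 of all 35 measured members passed, and 6.26% of all genes. A link between the box and the change of Fhl2 was not tested.
Nebl: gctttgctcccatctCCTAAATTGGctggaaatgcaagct
Myl3: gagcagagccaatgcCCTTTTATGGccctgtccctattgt
Ldb3: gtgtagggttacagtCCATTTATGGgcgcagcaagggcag
Myom1: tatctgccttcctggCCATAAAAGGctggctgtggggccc

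The tissue carried the transcripts of ventricular heart muscle in every mouse, and markers of skeletal muscle were near background. The median shift of 14 ventricular cardiomyocyte markers outside the list lay between -0.055 and 0.028 log2 units of the sham mean in each of the 9 mice. The mean log2 intensity of 12 skeletal muscle markers was between 3.79 and 4.07 in all mice, with 0 of 12 called in any comparison. Atrial transcripts separated the mice: the mean of 13 atrial markers was 8.86 to 9.70 in sham mice, 5.64, 5.95 and 9.28 in MCT mice 640, 641 and 644, and 8.09, 6.27 and 5.77 in MCT+NI mice 615, 617 and 619. Myl7, the atrial regulatory light chain, read 11.40 in MCT mouse 644 and 3.07 in MCT mouse 640. The arrays of mice 644 and 615 thus stood apart from their groups, on the side of the sham arrays, in these transcripts. In whole tissue, fewer cells of a type and less RNA per cell cannot be told apart. These arrays were left out as an alternative because of these values. Without them, 2 members were called in MCT against sham mice (Tpm2 and Pdlim3, both lower), and Fhl2, Pdlim5 and Cmya5 no longer passed (adjusted p 0.0608, 0.101 and 0.127). Between MCT+NI and sham mice 5 were then called, of which Fhl2 and Pdlim5 were called with all mice too. The share of all genes called without these arrays is not given here, so these counts do not set the list apart.

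**Figure D1:**
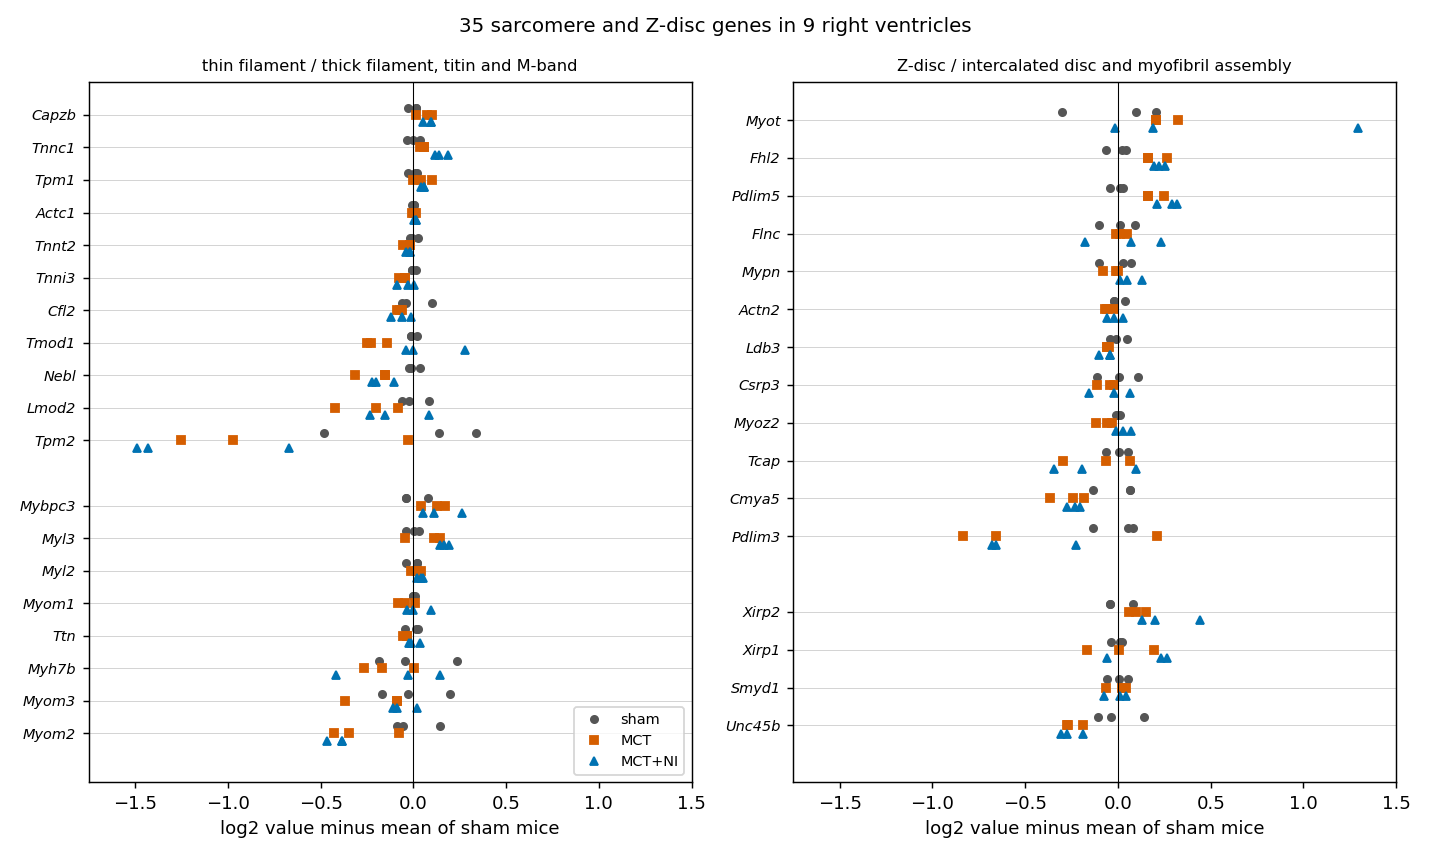
Log2 value of each of the 35 measured members in each mouse, minus the mean of the 3 sham mice (circles sham, squares MCT, triangles MCT+NI), ordered within each role by the MCT minus sham difference. Many rows stay close to 0, while Tpm2, Pdlim3 and Myot are spread by single mice, and Myot in MCT+NI mouse 615 is the rightmost point.

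Of the 11 thin filament members, 7 differed from sham by -0.07 to 0.07 log2 units in MCT mice and 4 (Nebl, Lmod2, Tmod1 and Tpm2) by -0.20 to -0.75. MCT mice did not overlap with sham mice in 7 of 11, nor did MCT+NI mice in 7 of 11, against 21.9% and 21% of all genes. Actc1, cardiac alpha-actin, read 13.10, 13.09 and 13.10 in the sham mice, 13.09, 13.11 and 13.10 in the MCT mice and 13.11, 13.11 and 13.10 in the MCT+NI mice. Its MCT minus sham difference was 0.01 log2 units, with a 95% interval from -0.038 to 0.050. Tnnt2 and Tnni3, the cardiac troponins that anchor the complex and inhibit contraction at rest, differed by -0.03 (adjusted p = 0.531) and -0.05 (adjusted p = 0.332), and Tpm1, the main cardiac tropomyosin, by 0.04 (adjusted p = 0.497). None of the 11 thin filament members passed in MCT against sham mice, where 6.26% of all genes did. At an unadjusted p under 0.05, 2 of the 11 did (Nebl and Lmod2, both lower), where 9.14% of all genes passed as lower.

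Tnnc1 encodes troponin C, the calcium sensor of the thin filament. It read 11.90, 11.97 and 11.93 in the sham mice, 11.99, 11.99 and 11.97 in the MCT mice and 12.12, 12.07 and 12.05 in the MCT+NI mice. The 3 MCT+NI mice lay above all of the other 6, and the MCT mice lay only just above the sham mice. The MCT+NI minus sham difference was 0.15 log2 units (SE 0.0287, adjusted p = 0.0183), and the MCT minus sham difference was 0.05 (SE 0.0287, adjusted p = 0.365). With mouse 620, 625 or 615 left out the adjusted p against sham was 0.0539, 0.0585 or 0.0663, and with arrays centred on their own medians the difference was 0.10 (adjusted p = 0.13).

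Nebl encodes nebulette, a nebulin-like protein that links actin to the Z-disc. It read 10.68, 10.73 and 10.67 in the sham mice, 10.38, 10.54 and 10.54 in the MCT mice and 10.47, 10.59 and 10.49 in the MCT+NI mice. All 6 MCT-treated mice lay below the 3 sham mice. The differences from sham were -0.20 (SE 0.0525, adjusted p = 0.0564) with MCT and -0.18 (SE 0.0525, adjusted p = 0.0905) with MCT+NI, so neither passed.

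Tmod1, the tropomodulin that caps the pointed end of the thin filament, was 1 of 3 members, with Tnnc1 and Myoz2, that passed at an unadjusted p under 0.05 when the 2 MCT-treated groups were compared. It read 5.07, 5.04 and 5.04 in the sham mice, 4.82, 4.80 and 4.91 in the MCT mice and 5.01, 5.05 and 5.33 in the MCT+NI mice. The MCT mice were the lowest 3 of the 9, and MCT+NI mouse 619 was the highest. The MCT+NI minus MCT difference was 0.29 log2 units (SE 0.0913, unadjusted p = 0.012, adjusted p = 1). The probe set lay below the median brightness of the array (percentile 45.3), where the median SD within groups was 0.138 over all genes.

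Among the 8 genes of the thick filament, titin and the M-band, those of the filament proper and of titin differed from sham by at most 0.11 log2 units in MCT mice, apart from Myh7b. The ventricular light chains Myl2 and Myl3 differed by 0.01 and 0.07, the myosin binding protein gene Mybpc3 by 0.11 (adjusted p = 0.356) and Ttn, which encodes titin, by -0.04 (adjusted p = 0.524). These values are of the brightest probe set of each gene. A second, dimmer Ttn probe set read 10.33, 10.52 and 10.41 in the sham mice and 10.29, 10.22 and 10.37 in the MCT mice. Myh7b, a myosin heavy chain gene, differed by -0.15 with an interval from -0.493 to 0.203. With MCT+NI, Myl3 differed from sham by 0.17 (adjusted p = 0.0796).

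Myom2 encodes an M-band protein that cross-links thick filaments. It read 11.14, 11.37 and 11.17 in the sham mice, 11.15, 10.88 and 10.80 in the MCT mice and 10.84, 10.76 and 10.84 in the MCT+NI mice. MCT mouse 640 lay among the sham mice and the other 5 MCT-treated mice lay below them. The MCT+NI minus sham difference was -0.42 log2 units (SE 0.0907, adjusted p = 0.0285), the largest difference among the members that passed. The MCT minus sham difference was -0.29 (SE 0.0907, adjusted p = 0.115). The adjusted p against sham in MCT+NI mice was 0.0964, 0.0622, 0.081, 0.0781 and 0.0903 without mouse 624, 625, 615, 617 and 619 in turn. Myom1, the other main cardiac M-band gene, differed by -0.04 in MCT mice and 0.02 in MCT+NI mice, and the dim probe set of Myom3 by -0.18 and -0.06. None of these 4 differences passed.

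The Z-disc held both members that rose with MCT. Fhl2 encodes a LIM-only protein that binds titin and signalling proteins. It read 11.64, 11.66 and 11.55 in the sham mice, 11.78, 11.88 and 11.78 in the MCT mice and 11.81, 11.84 and 11.87 in the MCT+NI mice. All 6 MCT-treated mice lay above the 3 sham mice. The difference from sham was 0.20 log2 units, or 1.14-fold, with MCT (SE 0.0409, adjusted p = 0.0244) and 0.23 with MCT+NI (SE 0.0409, adjusted p = 0.0125). The MCT difference stayed positive under 18 of 18 other settings (0.13 to 0.25) and passed under 9 of them. Its adjusted p was 0.051, 0.0702, 0.0539 and 0.0776 without mouse 620, 625, 640 and 641, and without mouse 619 that of the MCT+NI difference was 0.061. The MCT+NI call held under 14 of 18 other settings. It was also lost with arrays centred on their medians (adjusted p = 0.0836), without the intensity trend (0.0544) and with the atrial score as a covariate (0.164).

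Pdlim5 encodes a PDZ and LIM protein that binds alpha-actinin and protein kinase C. It read 11.01, 11.08 and 11.06 in the sham mice, 11.21, 11.21 and 11.30 in the MCT mice and 11.34, 11.26 and 11.37 in the MCT+NI mice. Again all 6 MCT-treated mice lay above the sham mice. The difference from sham was 0.19 (SE 0.0397, adjusted p = 0.0248) with MCT and 0.27, or 1.205-fold, with MCT+NI (SE 0.0397, adjusted p = 0.00466). The MCT+NI difference passed under 18 of 18 other settings, with adjusted p from 0.00283 to 0.0262. The MCT difference passed under 10 of 18, and its adjusted p was 0.0777, 0.0661, 0.0589, 0.053 and 0.0656 without mouse 620, 625, 640, 641 and 644. The MCT+NI minus MCT difference was 0.08 with an interval from -0.010 to 0.170.

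Cmya5 encodes myospryn, a large protein of the costamere that binds alpha-actinin and desmin. It read 9.79, 9.99 and 9.99 in the sham mice, 9.56, 9.74 and 9.68 in the MCT mice and 9.72, 9.65 and 9.69 in the MCT+NI mice. All 6 MCT-treated mice lay below the 3 sham mice, and sham mouse 620 was the closest to them. The MCT minus sham difference was -0.27 (SE 0.0634, adjusted p = 0.0426), and the MCT+NI minus sham difference was -0.24 (SE 0.0634, adjusted p = 0.0657). Of the 9 fits that left out 1 mouse, the MCT call held in the one without mouse 620 (adjusted p = 0.0161), and without mouse 624, 625, 640, 641, 644, 615, 617 and 619 the adjusted p was 0.136, 0.126, 0.142, 0.0562, 0.0833, 0.0668, 0.0574 and 0.0719. It also lost its call when the several probe sets of the gene were averaged (adjusted p = 0.0923).

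**Figure D2:**
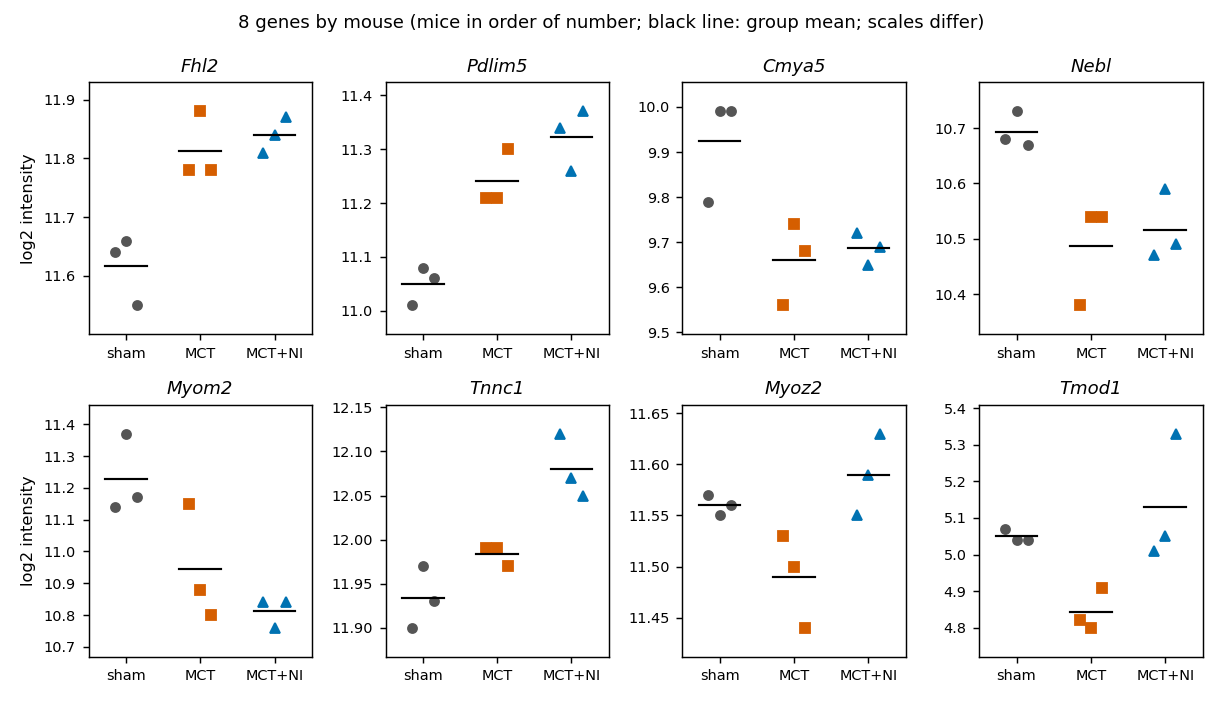
Log2 intensity of 8 members in each mouse, mice in order of their number within each group, with the group mean as a black line and a separate vertical scale per gene. Fhl2 and Pdlim5 are above sham in all 6 MCT-treated mice, Cmya5 and Nebl are below, and in Tmod1 and Myoz2 the MCT mice are the lowest.

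Myoz2, which encodes the calcineurin-binding protein calsarcin of the Z-disc, read 11.57, 11.55 and 11.56 in the sham mice, 11.53, 11.50 and 11.44 in the MCT mice and 11.55, 11.59 and 11.63 in the MCT+NI mice. The MCT mice were the lowest 3 and the MCT+NI mice lay around the sham mice. The MCT+NI minus MCT difference was 0.10 log2 units (SE 0.0322, unadjusted p = 0.0118, adjusted p = 1). Other anchors of the Z-disc differed little: Actn2, sarcomeric alpha-actinin, by -0.05 in MCT mice, Ldb3 by -0.06, Mypn by -0.03, Csrp3 by -0.06 and Flnc by 0.02, with adjusted p from 0.429 to 0.937.

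Tcap and Myot varied widely within groups. Myot, which encodes myotilin, read 6.36 to 6.87 in the sham mice, 6.87 to 6.99 in the MCT mice and 7.96, 6.85 and 6.65 in the MCT+NI mice. Mouse 615 stood above the other 8, and the MCT+NI minus sham difference of 0.49 had an interval from -0.179 to 1.166. Tcap, which encodes the titin cap, read 11.56 to 11.68 in the sham mice, 11.33 to 11.69 in the MCT mice and 11.28 to 11.72 in the MCT+NI mice.

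Tpm2 (beta-tropomyosin) and Pdlim3 (the actinin-associated LIM protein) had the largest differences from sham among the members, and these followed the atrial transcripts from mouse to mouse. They are described here because of that, after their values were seen. Tpm2 read 7.64, 8.46 and 8.26 in the sham mice, 7.15, 6.87 and 8.09 in the MCT mice and 7.45, 6.69 and 6.63 in the MCT+NI mice. Pdlim3 read 8.45, 8.64 and 8.67 in the sham mice, 7.75, 7.93 and 8.80 in the MCT mice and 8.36, 7.93 and 7.91 in the MCT+NI mice. In both genes MCT mouse 644 was at the sham level and MCT+NI mouse 615 was the highest of its group, as in Myl7. Among the 13 atrial markers, Kcnj3 and Clstn2 did not have their highest MCT+NI value in mouse 615.

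The MCT minus sham difference was -0.75 (adjusted p = 0.278) for Tpm2 and -0.43 (adjusted p = 0.389) for Pdlim3. Without mice 644 and 615 it was -1.11 and -0.75, and with the atrial score (the mean of Myl7, Myl4, Sln, Nppa, Dkk3 and Bmp10) as a covariate it was 0.03 and 0.16. Both genes were picked for following that score, so these values describe the choice and test nothing. For the atrial list itself the median MCT minus sham difference was -2.13 log2 units. At an unadjusted p under 0.05, 11 of 13 atrial markers were lower (9.14% of all genes), while 0 of 13 had an adjusted p under 0.05 (6.26% of all genes). For MCT+NI against sham 2 of 13 had one (6.26% of all genes), Kcnj3 (lower) and Clstn2 (higher). The part of atrial tissue in the values of Tpm2 and Pdlim3 was not tested.

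**Figure D3:**
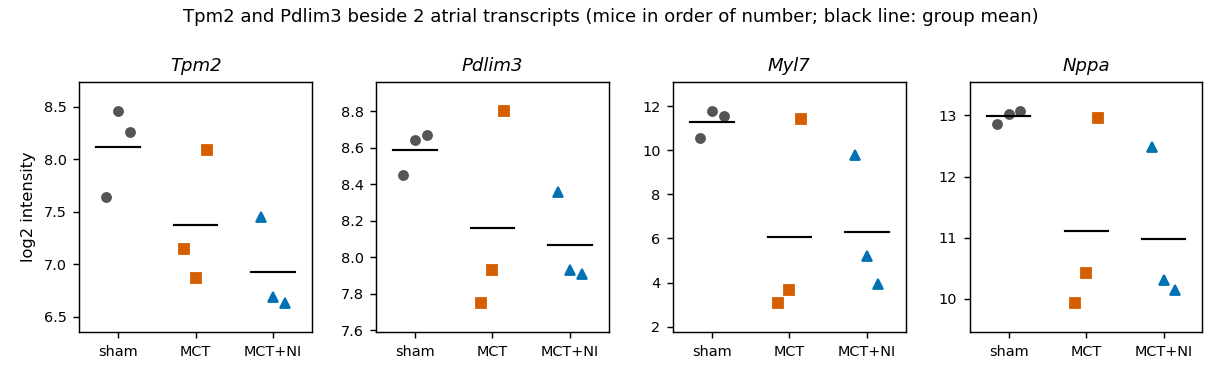
Log2 intensity of the members Tpm2 and Pdlim3 and of the atrial transcripts Myl7 and Nppa in each mouse, mice in order of their number within each group, with the group mean as a black line. In all 4 panels MCT mouse 644 (the rightmost square) lies near the sham mice and MCT+NI mouse 615 (the leftmost triangle) is the highest of its group.

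Of the 4 genes of the intercalated disc and of myofibril assembly, none passed. Smyd1, a muscle methyltransferase that acts with the myosin chaperone, read 10.08, 10.03 and 9.97 in the sham mice, 9.96, 10.07 and 10.05 in the MCT mice and 9.95, 10.04 and 10.07 in the MCT+NI mice, and its groups overlapped fully. Xirp1, which encodes Xin, read 8.69, 8.75 and 8.74, then 8.92, 8.56 and 8.73, then 8.99, 8.67 and 8.96, and its MCT minus sham difference was 0.01 with an interval from -0.222 to 0.246. Unc45b, the myosin chaperone, differed from sham by -0.24 in MCT mice (adjusted p = 0.0757) and by -0.26 in MCT+NI mice (adjusted p = 0.0614), with no overlap of either group with sham. Xirp2 differed by 0.26 in MCT+NI mice (adjusted p = 0.0892), with mouse 615 the highest at 9.93.

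Members that differed from sham by more than 0.4 log2 units were Tpm2 (-0.75 with MCT, -1.20 with MCT+NI), Pdlim3 (-0.43, -0.52) and, with MCT+NI, Myot (0.49) and Myom2 (-0.42). In MCT against sham mice the median member difference was -0.04 log2 units and that of all genes was -0.02, and 26 of 35 members (74.3%) lay within 0.2 log2 units of sham, close to the 76.1% of all genes. The 95% interval lay wholly within that range for 16 of 35 members (45.7%) and for 19.3% of all genes. The bright members varied little: among the brightest 1882 genes of the array, which held 29 of the 35, the median SD within groups was 0.0597 for members and 0.0673 for all genes, and 3 of the 29 were called against 14.7% of all genes of that brightness. Brightness also depends on the probes and is no measure of RNA per gene. The highest mean log2 level of any gene was 13.27, and Actc1 (13.1) and Tnnt2 (13.07) lay close below it. Whether values this near the top of the scale could still show a change was not tested.

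MCT and sham mice did not overlap in 13 of 35 members (37.1%), against 21.9% of all genes. MCT mice were the higher in 4 of these (11.7% of all genes) and the lower in 9 (10.2%). The 2 MCT-treated groups did not overlap in 5 of 35 (14.3%), against 6.08% of all genes. In all 5 (Myoz2, Mypn, Tmod1, Tnnc1 and Ttn) MCT+NI mice were the higher, against 3.11% of all genes, and in 0 of 35 the lower, against 2.96%. On the dimmer Ttn probe set, which was not used, these groups overlapped. It read 10.29, 10.22 and 10.37 in the MCT mice and 10.56, 10.29 and 10.17 in the MCT+NI mice. MCT+NI and sham mice did not overlap in 15 of 35 (42.9%), against 21% of all genes, with 8 higher (10.7% of all genes) and 7 lower (10.3%).

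At an unadjusted p under 0.05, 7 of 35 members passed in MCT against sham mice, with 19.7% of all genes. They were 2 higher (10.6% of all genes) and 5 lower (9.14%). For MCT+NI against MCT 3 of 35 passed, with 2.9% of all genes. All 3 were higher (1.59% of all genes) and 0 were lower (1.3%). For MCT+NI against sham 12 of 35 passed, with 19.5% of all genes, 7 of them higher (10.2%) and 5 lower (9.37%).

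Which members were called depended on how the arrays were scaled. With each array centred on its own median over the 18820 genes, the median member difference was -0.10 in MCT against sham mice. There 4 members were called, 0 higher and 4 lower (Cmya5, Myom2, Nebl and Unc45b), in place of 2 higher and 1 lower. This scaling shifts every gene of an array alike, took Actc1 from 0.01 to -0.06 and called 1470 of 18820 genes in place of 1179. For MCT+NI against sham the same scaling gave 1 higher and 3 lower in place of 3 and 1, with 1407 genes called in place of 1179. For MCT against sham, Fhl2 and Pdlim5 then differed by 0.13 (adjusted p = 0.159) and 0.12 (adjusted p = 0.0841).

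With NI relative to MCT alone, 28 of 35 members (80%) and 47.6% of all genes had a difference above 0. The same was so for 11 of the 14 ventricular cardiomyocyte markers outside the list (78.6%), for 0 of 12 fibroblast markers and for 1 of 12 macrophage markers. The median difference of these lists was 0.03, -0.13 and -0.12, and their part in the members' values was not tested. The median was 0.03 for the members and 0.00 for all genes, and 32 of the 35 differences lay within 0.2 log2 units. Against sham, the MCT+NI median was 0.00 for the members and -0.02 for all genes.

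**Figure D4:**
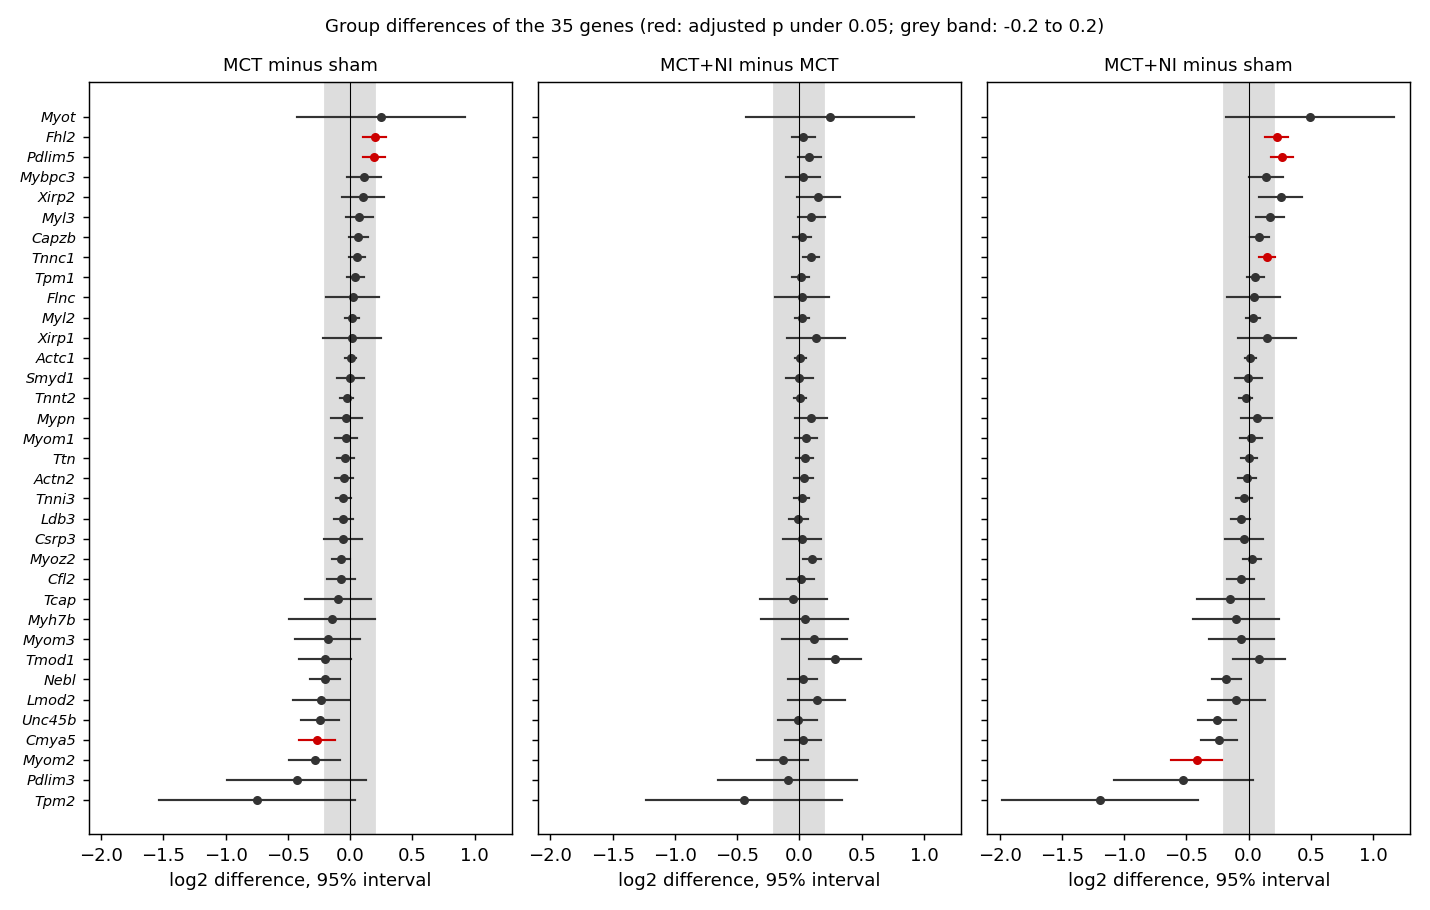
Difference between groups for each of the 35 members on the log2 scale with its 95% interval, for MCT minus sham, MCT+NI minus MCT and MCT+NI minus sham, in the order of the first panel. Red marks an adjusted p under 0.05 (3, 0 and 4 members), and the grey band spans -0.2 to 0.2.

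A wider list of sarcomere and Z-disc genes that are not members (57 of 64 measured) gave 7 higher and 5 lower in MCT against sham mice, where 4.65% and 1.61% of all genes were called. For MCT+NI against sham these counts were 7 and 7, where 4.52% and 1.75% of all genes were called. None passed when the 2 MCT-treated groups were compared, with 1 of 57 (Tnnt1) at an unadjusted p under 0.05. The 6 largest differences among those that passed are named here, and these genes are known from many cell types. Acta1, a striated muscle actin, differed by 1.09 and did not pass (adjusted p = 0.213). Tpm4 rose by 1.14 log2 units (SE 0.0739, adjusted p = 8.2e-05), Tpm3 by 0.92 and Actn1, the non-muscle alpha-actinin, by 0.76. Pdlim1 rose by 0.60, Capza1 by 0.55 and Tmod3 by 0.53, with adjusted p from 0.000313 to 0.00256 for these 5.

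The 5 that fell are known chiefly from muscle. Fhod3, a formin that assembles cardiac thin filaments, fell by 0.37, and Mylk3, the kinase of the cardiac light chain, fell by 0.35. Cap2, an actin-binding protein, fell by 0.31, Smpx, a small muscle protein, by 0.30 and Mlip, a lamin-interacting protein of muscle, by 0.23. Their adjusted p-values were between 0.0103 and 0.0368. Myh7, the slow myosin heavy chain whose rise is a usual sign of cardiac load, differed by 0.33 (SE 0.233, adjusted p = 0.495), and Myh6 was not measured by a probe set of its own.

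Beside several members stood a related gene that passed as higher while the member did not. Among these members, Capzb was higher than sham by 0.07 with MCT and 0.09 with MCT+NI. Neither group overlapped with sham, and neither difference passed (adjusted p = 0.304 and 0.172). These pairs were chosen after the values were seen. Actn1 read 7.33, 7.21 and 7.48 in the sham mice, 8.12, 8.07 and 8.10 in the MCT mice and 8.07, 7.69 and 7.99 in the MCT+NI mice. Taken within each mouse relative to Actn2, Actn1 was higher than in sham by 0.80 ± 0.05 log2 units in MCT mice and 0.59 ± 0.16 in MCT+NI mice (SD, n = 3). Against Tpm1 within each mouse, Tpm4 was higher by 1.10 ± 0.11 and 1.05 ± 0.16, and Tpm3 by 0.87 ± 0.10 and 0.75 ± 0.14. Against Tmod1, Tmod3 was higher by 0.73 ± 0.12 and 0.46 ± 0.10, and against Capzb, the beta subunit of the capping protein, the alpha subunit gene Capza1 was higher by 0.49 ± 0.11 and 0.47 ± 0.12. Since the pairs were chosen for this difference, no test is given. Pdlim1 and Pdlim7 taken against Pdlim3 within each mouse were higher by 1.03 ± 0.66 and 0.89 ± 0.53 in MCT mice and by 1.19 ± 0.17 and 0.96 ± 0.31 in MCT+NI mice, wide spreads that include the mouse-to-mouse variation of Pdlim3 described above.

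**Figure D5:**
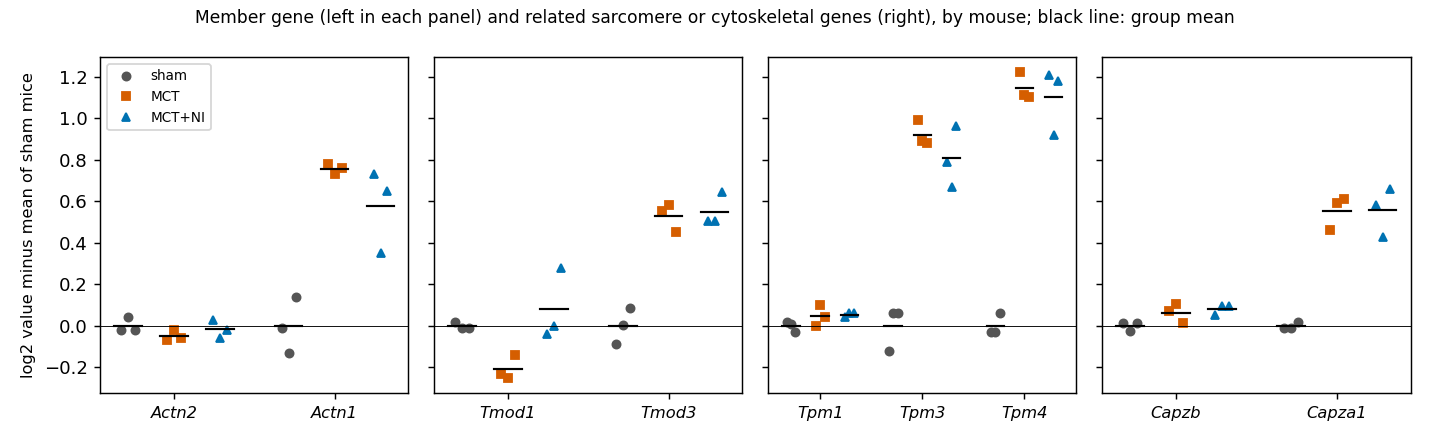
Log2 value minus the mean of the sham mice for a member (left in each panel) and its related genes (right), in each mouse, with the group mean as a black line. Actn2, Tpm1 and Capzb stay within about 0.1 of sham while Actn1, Tpm3, Tpm4 and Capza1 lie above all sham mice, and Tmod1 and Tmod3 lie on opposite sides of sham in the MCT mice.

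Some markers of other cell types rose with these genes. In MCT against sham mice 5 of 12 fibroblast markers, 6 of 12 smooth muscle and pericyte markers, 4 of 12 endothelial markers and 3 of 12 macrophage markers passed as higher. In the same order 0, 0, 1 and 1 passed as lower. Of all genes 4.65% passed as higher and 1.61% as lower. Passed or not, 3, 2, 5 and 3 of the 12 markers in these lists had a difference below 0. The mean log2 intensity of the fibroblast list was 8.22 to 8.49 in sham, 8.72 to 8.86 in MCT and 8.52 to 8.85 in MCT+NI mice. That of the smooth muscle and pericyte list was 8.50 to 8.51, 8.71 to 8.93 and 8.77 to 8.84. The part of these cells in the rise of Tpm3, Tpm4, Actn1, Tmod3 and Capza1 was not tested.

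Among 17 transcription factors of muscle genes, 1 (5.88%) passed in MCT against sham mice, near the 6.26% of all genes. Hopx, a homeodomain protein that restrains SRF, read 8.32, 8.49 and 8.28 in the sham mice, 8.06, 7.91 and 7.82 in the MCT mice and 7.96, 8.06 and 8.06 in the MCT+NI mice. All 6 treated mice lay below the sham mice, and the difference was -0.44 with MCT (SE 0.0763, adjusted p = 0.0104) and -0.34 with MCT+NI (SE 0.0763, adjusted p = 0.034). The largest difference on the list was that of Tbx5, a factor of atrial and left ventricular muscle, at -1.08 (SE 0.349, adjusted p = 0.12). It read 9.24, 9.79 and 9.74 in the sham mice, 8.06, 8.01 and 9.46 in the MCT mice and 8.51, 8.20 and 8.22 in the MCT+NI mice, with mouse 644 again near sham. Gata6 differed by -0.41 (adjusted p = 0.0524). Srf itself differed by 0.04 (adjusted p = 0.892) and Mef2c by -0.01 (adjusted p = 0.95) in MCT mice. Of the 14 ventricular markers outside the list, 2 passed as lower in MCT mice, where 1.61% of all genes did. They were Corin (-0.39) and Ryr2, the calcium release channel (-0.17).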

How the data were processed

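Total RNA (100 ng) of 9 right ventricles was hybridised to Affymetrix mouse gene arrays. The authors processed the scans by RMA and deposited log2 intensity values. In their methods the probes are regrouped by Entrez gene, but the deposited table holds 35556 manufacturer's probe sets, of which 21218 were annotated to 1 gene, 1881 to several and 12457 to none. The values were not normalized again. The array median over all 35556 probe sets was 4.766 to 4.795, and 14 of 35 members (12042 of 18820 genes) had tied values, which RMA can give. Where arrays were centred as an alternative, the median was taken over the 18820 genes.

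Group means were fitted in limma 3.58.1 (R 4.3.3) over all arrays, with an intensity trend, two-sided tests and Benjamini-Hochberg adjustment over 18820 genes, after a test on simulated data. Promoters were searched in Python 3.11.15. Described in full were members that passed in any comparison, those with an unadjusted p under 0.05 for MCT+NI against MCT (filled up to 8 by p), and 3 steady members. The members, lists and alternatives were chosen with earlier results of these data known. Labels and methods differ on the RNA isolation and the weeks of diet before injection, and no batch is given in the sources used here.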

Additional observations from a re-analysis of the deposited data

How the results depend on the processing

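No difference of a member that passed the test changed direction under any alternative run. The counts of members called did move. In MCT against sham mice the count was 5, against 3, when only genes at or above the median level were tested. That filter called 1297 of 9410 genes. The count was 0 without the intensity trend, 1 when only the compared groups were fitted and 1 with the atrial score as a covariate. The counts were 7 and 5 at unadjusted p under 0.05 (19.7% of all genes) and 0.01, and 0 to 2 when 1 mouse was left out. The count was 0 without mouse 625 or 641 and 1 without mouse 640. Between MCT+NI and MCT mice the counts were 3 and 1 at the unadjusted thresholds and 0 to 0 when 1 mouse was left out. Between MCT+NI and sham mice they were 7 with the level filter (1274 of 9410 genes called), 2 without the trend and 1 with the atrial score, against 4. They were 12 and 10 at the unadjusted thresholds (19.5% of all genes at 0.05), and 2 to 6 when 1 mouse was left out (2 without mouse 625, 615 or 619). Where no share of all genes is given, the counts describe the calls only and do not set the members apart. Centring each array on its median gave median differences of -0.10 (MCT) and -0.048 (MCT+NI) from sham, where they were -0.04 and 0.00. Over all genes, the atrial score as a covariate took the calls in MCT against sham mice from 1179 to 506. The causes were not tested. Averaging probe sets, testing each probe set, quantile normalization and array quality weights left each count within 1.5 times. No paired analysis was possible because the mice of different groups share no replicate number. The standard error of a member's MCT minus sham difference ran from 0.0195 (Actc1) to 0.347 log2 units (Tpm2), which sets what 3 mice per group can resolve.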

Other observations

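In MCT+NI mouse 615 several striated muscle transcripts outside and inside the list stood highest of the 9 mice, a pattern noticed after the values were seen. Acta1, skeletal alpha-actin, read 6.99, 7.37 and 6.62 in the sham mice, 8.03, 8.24 and 7.98 in the MCT mice and 9.85, 7.85 and 8.25 in MCT+NI mice 615, 617 and 619. Its differences from sham were 1.09 with MCT (adjusted p = 0.213) and 1.66 with MCT+NI (adjusted p = 0.0635), with no overlap between the 3 sham and the 6 treated mice. Myot (7.96), Xirp2 (9.93) and Mybpc3 (11.82) also had their highest value in mouse 615. So did Tnnc1 (12.12), Myl3 (12.11), Ttn (11.80), Myom1 (10.90), Mypn (8.83), Flnc (9.01) and Xirp1 (8.99). The other members had their highest value in another mouse. Tnnc1, Ttn and Mypn are among the members in which the 2 MCT-treated groups did not overlap. Of the 12 skeletal muscle markers, Mybpc2 read 5.33 in mouse 615 and 4.16 to 5.33 over all mice, and Myh4 (3.17) was also highest there. No other marker of that list was highest in mouse 615, and Pvalb (2.57) was the lowest of the 9 mice there. The mean log2 intensity of that list was 3.97 in mouse 615 and 3.79 to 4.07 over all mice. The part of skeletal muscle RNA in these values was not tested.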
